A study of Mus musculus with 96 samples.

Results

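The genes described here are 10 genes of the epididymis whose probes were read on arrays of epididymal fat: Defb22, Spint4, Adam7, Wfdc10, Eppin, Defb20, Aqp9, Defb29, Lcn12 and Defb30. They are covered by 12 of the 25697 probes of the array, since Eppin has 3 probes and each of the others has 1. The members were chosen by their measured levels on the 24 epididymal fat arrays, with earlier results of these data known. Those levels are therefore given as a description, and no test of a difference between conditions is made of them in epididymal fat.

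The series measured RNA from 4 tissues of male mice on Illumina bead arrays: the epididymal white fat (eWAT), liver, muscle and brown fat (BAT). There were 6 arrays in each of 16 groups, 96 in all. The groups of each tissue were SIRT1Tg, mice with the genotype SIRT1Tg/Tg fed ad libitum on a low fat diet; CR, C57/Bl6 wild type mice on the low fat diet under caloric restriction, labelled EODF, for 3 months; EX, C57/Bl6 wild type mice fed ad libitum on the low fat diet and housed with a running wheel for 10 weeks; and WT, C57/Bl6 wild type mice fed ad libitum on the low fat diet. All mice were fasted for 12 h and killed at 8 a.m. Their age, and the promoter that drives the Sirt1 transgene, are not given in the sources used here, and nothing states that animals were pooled. Nothing beyond the animal numbers says how the 6 samples of a group were raised, so p-values measure the spread between these samples. Arrays are named below by their group and animal number. Animal numbers fall into a lower series (A, the 6 EX mice with 3 SIRT1Tg and 3 WT mice) and a higher one (B, the 6 CR mice with the other 3 SIRT1Tg and 3 WT mice), and the labels do not say what the series stand for.

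The epididymis is the coiled duct in which sperm leaving the testis mature and are stored. Its epithelium secretes families of small proteins that bind sperm, among them beta-defensins, lipocalins, and protease inhibitors with Kunitz or WAP domains, and many of these genes are little used elsewhere in the body. The epididymal fat pad lies against this duct, and both are removed from the same site. Aqp9, a water and glycerol channel, differs from the other members in also being a gene of hepatocytes.

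Of the 10 members, 7 lay on chromosome 2, 2 on chromosome 14 (Adam7 and Defb30) and 1 on chromosome 9 (Aqp9). Chromosome 2 held 8.04% of the eWAT features with a known chromosome, and chromosome 14 held 3.46%. The promoters of 3 beta-defensins are shown because Defb22 and Defb20 are neighbours that were high on the same 3 fat arrays, whereas Defb30, on another chromosome, was high on a different set. Each window runs from 250 bases before to 50 bases after the gene start, 5′ to 3′ on the gene's strand, from RefSeq (GRCm38.p6). Capitals mark the androgen receptor half-site letters AGAACA on either strand (TGTTCT when read on the other strand).
Defb22 (chr2:152490089-152490388, minus strand): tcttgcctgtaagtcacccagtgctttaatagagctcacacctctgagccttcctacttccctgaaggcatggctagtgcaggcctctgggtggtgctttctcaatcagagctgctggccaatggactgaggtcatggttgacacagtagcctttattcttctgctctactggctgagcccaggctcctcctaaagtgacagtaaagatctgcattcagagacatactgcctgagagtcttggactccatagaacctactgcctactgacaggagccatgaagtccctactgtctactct
Defb20 (chr2:152476813-152477112, plus strand): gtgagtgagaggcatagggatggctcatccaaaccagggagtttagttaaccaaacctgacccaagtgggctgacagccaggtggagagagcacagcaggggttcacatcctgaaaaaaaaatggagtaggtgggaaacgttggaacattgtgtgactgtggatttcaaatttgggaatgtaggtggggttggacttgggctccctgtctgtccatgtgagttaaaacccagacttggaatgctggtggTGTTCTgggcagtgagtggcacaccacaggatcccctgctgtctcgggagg
Defb30 (chr14:63037797-63038096, minus strand): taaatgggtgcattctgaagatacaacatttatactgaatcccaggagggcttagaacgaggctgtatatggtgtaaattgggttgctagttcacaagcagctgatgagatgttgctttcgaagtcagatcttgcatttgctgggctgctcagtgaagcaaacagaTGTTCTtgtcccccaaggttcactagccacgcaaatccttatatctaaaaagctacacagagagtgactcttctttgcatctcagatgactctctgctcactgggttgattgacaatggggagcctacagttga
The half-site letters stood in 5 of the 10 promoters found for 9 members (Eppin, Defb20, Lcn12, Defb30 and 1 of 2 Aqp9 promoters), and in 19% of the 32851 promoters of the table. Defb22, Spint4, Wfdc10 and Defb29 had none of these letters in the window. The full site, AGAACA, then any 3 bases, then TGTTCT, was in 0 member promoters and in 3 of 32851. The letters TATAAA, searched on both strands, were in 1 member promoter, that of Defb30, and in 13.6% of all. Such matches describe the letters of a window only.

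Levels are normalised log2 intensities, on which a probe at background reads a little over 4, the log2 of the offset added after background correction. A probe was called detected on an array when its intensity exceeded the upper 5% of that array's background. Over the 24 eWAT arrays 13130 to 15381 probes were detected and the mean signal ran from 213 to 365. Precision is set by the number of arrays, since bead arrays give no counts. The fat markers Adipoq (12.8 to 13.7) and Lep (7.20 to 13.5, with all 96 arrays normalised together) were detected on all 24 eWAT arrays. Sirt1 averaged 9.68 ± 0.34 on SIRT1Tg eWAT arrays and 7.10 ± 0.33 on WT eWAT arrays (SD, n = 6 each), a difference of 2.58 ± 0.11 (SE, limma adjusted p = 7.78e-13).

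With the exception of Aqp9, which was detected on all 24 arrays, the genes were near background in most fat samples and very high in a few. The mean of the 10 levels exceeded 10 on 3 arrays, at 11.65 on CR-2241, 11.21 on EX-1971 and 10.24 on WT-1960. No SIRT1Tg array was among these 3. It was 7.73 on EX-1966, 6.64 on SIRT1Tg-1955, 6.32 on EX-1972, 5.97 on WT-1961, 5.86 on SIRT1Tg-1953 and 5.08 on WT-2226. On the other 15 arrays it lay between 4.36 and 4.64. All 10 members were detected on 5 arrays (CR-2241, EX-1971, WT-1960, EX-1966 and SIRT1Tg-1953), and 5 or more on 8. In bulk tissue, fewer cells of a type and less RNA per cell cannot be told apart, so the levels give amounts of RNA and not of cells.

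**Figure D1:**
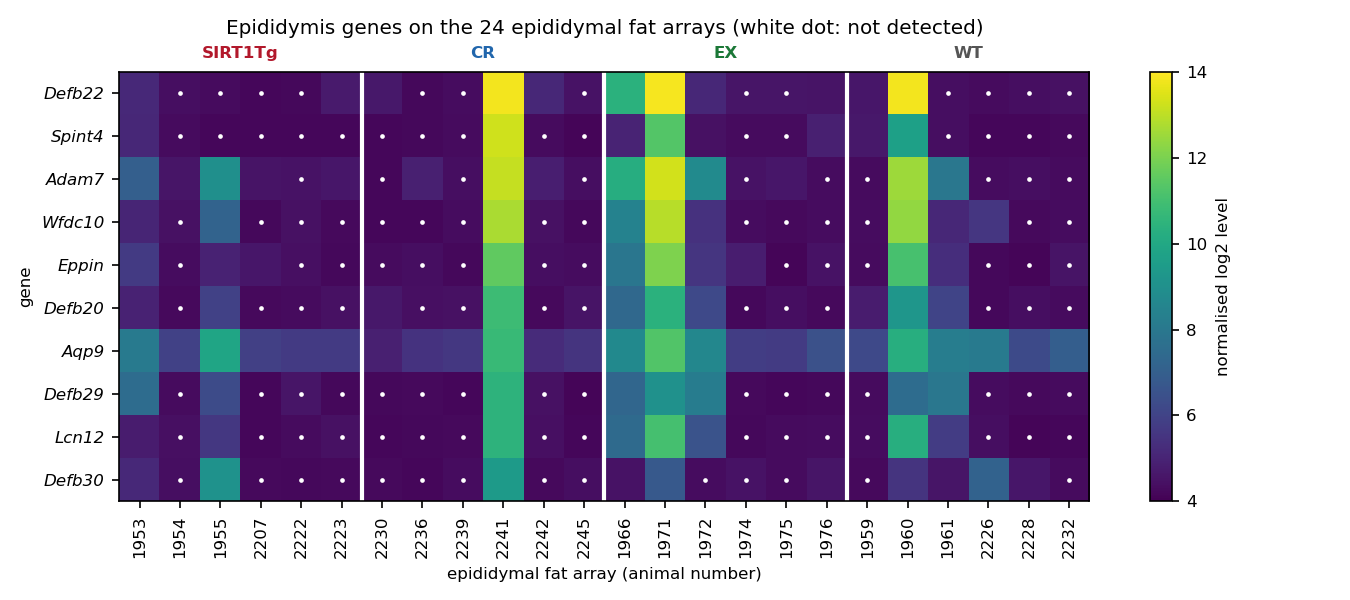
Normalised log2 level (colour) of the 10 epididymis genes (down) on the 24 epididymal fat arrays (across, by animal number), in the order SIRT1Tg, CR, EX and WT. A white dot marks a probe not detected on that array. The columns CR-2241, EX-1971 and WT-1960 are bright for nearly all genes, and SIRT1Tg-1955 and WT-2226 are bright for Defb30 and Aqp9 but not for Defb22.

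Among the beta-defensins, small cationic peptides with antimicrobial and sperm-binding roles, Defb22 had the widest range of all 11791 eWAT features, 9.69 log2 units, against a median range of 1.14. Defb22, which coats mouse sperm, ran from 4.18 with a median of 4.34 to 5.17 on the 6 SIRT1Tg arrays. On the CR arrays the lowest, median and highest levels were 4.23, 4.56 and 13.81, on the EX arrays 4.51, 4.84 and 13.87, and on the WT arrays 4.29, 4.42 and 13.81. Thus 1 array in each of CR, EX and WT stood at 13.8 or above, EX-1966 followed at 10.38, and every other array was at 5.17 or below. The conditions overlapped at their low ends. On CR-2241, EX-1971 and WT-1960 its raw intensities were 15881, 16999.8 and 15075, with 5 to 7 of 25697 probes brighter. Differences among these 3 arrays are therefore close to the top of the scale.

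Defb20, the neighbour of Defb22, had lowest, median and highest levels of 4.24, 4.38 and 5.95 on SIRT1Tg arrays, 4.27, 4.49 and 10.84 on CR arrays, 4.23, 5.29 and 10.37 on EX arrays, and 4.23, 4.56 and 9.26 on WT arrays. It was highest on the same 3 arrays as Defb22, but it was also above background on SIRT1Tg-1955 (5.95), EX-1972 (6.22) and WT-1961 (6.03). On those 3 arrays Defb22 read 4.31, 5.12 and 4.39.

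Defb29 departed further from this order. Its lowest, median and highest levels were 4.19, 4.41 and 7.54 on SIRT1Tg arrays, 4.15, 4.24 and 10.48 on CR arrays, 4.17, 5.78 and 9.04 on EX arrays, and 4.25, 4.32 and 7.95 on WT arrays. The highest WT array was WT-1961 (7.95) and not WT-1960 (7.52), and EX-1972 (8.20) and SIRT1Tg-1953 (7.54) exceeded EX-1966 (7.31) and WT-1960. It was detected on 8 arrays, the same 8 as Lcn12.

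Defb30 followed a different set of arrays again. Levels on SIRT1Tg arrays were 4.20 at the lowest, 4.30 at the median and 9.10 at the highest, on CR arrays 4.16, 4.29 and 9.46, on EX arrays 4.29, 4.47 and 6.79, and on WT arrays 4.24, 4.59 and 7.15. The highest SIRT1Tg array was SIRT1Tg-1955, where Defb22 was not detected, and the highest WT array was WT-2226 (7.15), above WT-1960 (5.51). On EX-1966, where Defb22 was 10.38, Defb30 was 4.48. It was the member with the narrowest range, 5.31, which ranked 125th among the 11791 features, while the other 9 members ranked between 1st and 65th.

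The protease inhibitors were led by 3 arrays in the same way as Defb22. Spint4, a Kunitz-type inhibitor, had lowest, median and highest levels of 4.17, 4.18 and 5.13 on SIRT1Tg arrays, 4.15, 4.23 and 13.28 on CR arrays, 4.28, 4.67 and 11.32 on EX arrays, and 4.17, 4.31 and 9.69 on WT arrays. After CR-2241, EX-1971 and WT-1960 the next array was SIRT1Tg-1953 at 5.13. EX-1966, where Defb22 was 10.38, had 5.0 for Spint4. Spint4 RNA was thus high on 3 arrays and near background on the other 21.

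Wfdc10, which carries a WAP domain, ran from 4.23 through a median of 4.44 to 7.17 on SIRT1Tg arrays, from 4.16 through 4.27 to 12.74 on CR arrays, from 4.25 through 4.89 to 12.93 on EX arrays, and from 4.26 through 4.73 to 12.37 on WT arrays. The highest SIRT1Tg array was SIRT1Tg-1955, and WT-2226 was at 5.58. Eppin, which has both a WAP and a Kunitz domain and binds to sperm, read 4.23, 4.51 and 5.72 at the lowest, median and highest SIRT1Tg arrays, 4.21, 4.35 and 11.55 at those of CR, 4.12, 5.17 and 12.07 at those of EX, and 4.16, 4.41 and 11.10 at those of WT. The 3 Eppin probes gave the same 4 arrays on top. Probe ILMN_2803415 reached 11.46, 12.16 and 11.07 on CR-2241, EX-1971 and WT-1960, and the dimmer probe ILMN_2661558 reached 9.77, 9.92 and 9.03.

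Adam7 encodes a protein of the metalloprotease-disintegrin family that passes from epididymal epithelium to sperm. Its lowest, median and highest levels were 4.47, 4.57 and 8.96 on SIRT1Tg arrays, 4.17, 4.61 and 13.12 on CR arrays, 4.34, 6.69 and 13.33 on EX arrays, and 4.29, 4.35 and 12.55 on WT arrays. Below CR-2241, EX-1971 and WT-1960 came a middle set, EX-1966 at 10.22, SIRT1Tg-1955 at 8.96, EX-1972 at 8.77, WT-1961 at 7.97 and SIRT1Tg-1953 at 7.04. Every other array was at 4.88 or below, including WT-2226 at 4.32.

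Lcn12, a lipocalin that binds retinoids, had lowest, median and highest levels of 4.19, 4.43 and 5.63 on SIRT1Tg arrays, 4.16, 4.22 and 10.47 on CR arrays, 4.22, 5.46 and 11.06 on EX arrays, and 4.12, 4.36 and 10.29 on WT arrays. Aqp9 was the only member detected on all 24 eWAT arrays. Its levels were 5.71, 5.93 and 9.86 on SIRT1Tg arrays, 4.89, 5.49 and 10.72 on CR arrays, 5.72, 7.56 and 11.29 on EX arrays, and 6.19, 7.56 and 10.28 on WT arrays. The 9 arrays with a mean member level over 5 were also the 9 highest for Aqp9, at 8.07 or above, and the other 15 lay between 4.89 and 6.97. Aqp9 is itself part of that mean, so this overlap is partly built in.

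**Figure D2:**
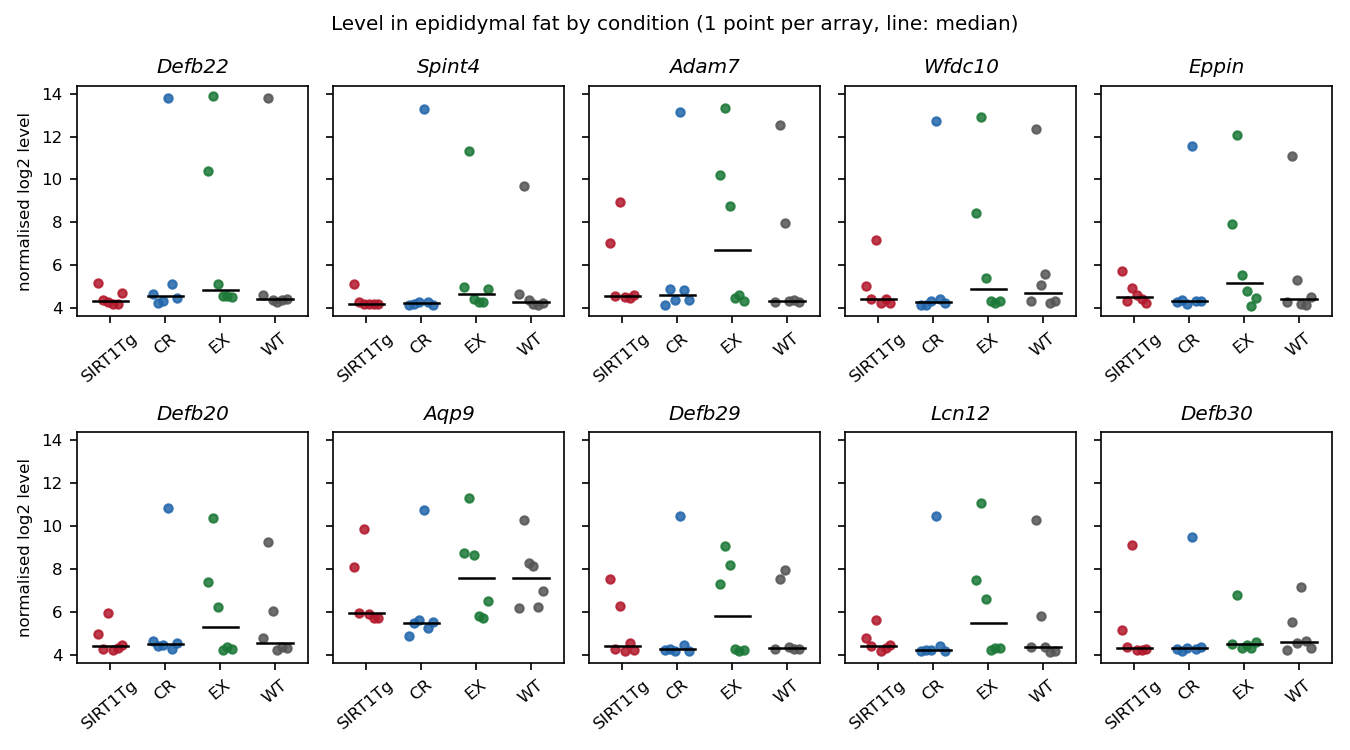
Normalised log2 level of each of the 10 epididymis genes in epididymal fat by condition, with 1 point per array (6 per condition) and a line at the median. CR has a single high array for every gene, SIRT1Tg has none above 5.17 for Defb22 and Spint4, and the SD is largest in EX for 5 genes and in CR for the other 5.

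Set side by side, the arrays with member RNA carried different subsets of it. CR-2241, EX-1971 and WT-1960 were high for all members, except that Defb30 was only 5.51 on WT-1960. EX-1972 and WT-1961 were above background for Adam7, Aqp9, Defb29, Lcn12 and Defb20 and at or near it for Spint4 and Defb30. SIRT1Tg-1955 was high for Adam7, Aqp9, Defb30 and Wfdc10 and at background for Defb22 and Spint4. WT-2226 had 3 members detected, namely Aqp9, Defb30 and Wfdc10. Of the 12 series A arrays 7 had 5 or more members detected, and of the 12 series B arrays 1 did (CR-2241). EX mice are all in series A and CR mice all in series B, so between these conditions series and condition cannot be told apart. SIRT1Tg and WT mice lie in both series, with 2 of 3 SIRT1Tg and 2 of 3 WT arrays of series A having 5 or more members detected, and 0 of 3 and 0 of 3 in series B. Within series A the mean member level ran over 4.52, 5.86 and 6.64 on the 3 SIRT1Tg arrays, and over 4.61, 5.97 and 10.24 on the 3 WT arrays. Within series B the 3 SIRT1Tg arrays lay between 4.45 and 4.50 and the 3 WT arrays between 4.49 and 5.08.

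Member levels differed widely between arrays of a condition, and fitted differences from WT had standard errors far wider than those of other features. CR had 1 raised array and EX had 3 (11.21, 7.73 and 6.32). The model held condition and number series, and for the members its estimates are a description. The group means themselves ran otherwise for CR and EX: the mean member level averaged 5.64 on CR arrays, 6.49 on EX arrays and 5.83 on WT arrays, and 4 of 10 members averaged higher in CR than in WT and 9 of 10 higher in EX than in WT. Without the series term the median member difference was -0.12 for CR and 0.70 for EX, so the signs for CR and EX given next rest on that term, while that for SIRT1Tg did not change. For SIRT1Tg minus WT the median over the 10 members was -0.84 log2 units, with 1 above 0 and 9 below, beside a median of -0.01 over all 11791 features. CR minus WT had a median of 0.76, with 9 above 0 and 1 below, beside 0.02, and EX minus WT had -0.19, with 3 above and 7 below, beside -0.01. Standard errors of the members ran from 0.89 to 1.83 for SIRT1Tg and from 0.99 to 2.05 for CR and EX, against medians of 0.15 and 0.17 over all features. Defb22 had estimates of -1.50 ± 1.83 for SIRT1Tg, 0.98 ± 2.05 for CR and 0.31 ± 2.05 for EX (± SE, n = 6 arrays each). Without WT-1960 the median for SIRT1Tg was 0.02, and without CR-2241 that for CR was -0.46. For EX the median was -1.03 without EX-1971 and 1.25 without WT-1960.

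The 3 comparisons share the WT arrays. Over all eWAT features limma called 0.0594% for SIRT1Tg minus WT (7 of 11791, adjusted p under 0.05), 3.61% for CR minus WT (426, of which 86 were higher and 340 lower in CR) and 0.00848% for EX minus WT (1). Of 55 other epididymis genes listed, 43 had a probe and 22 passed the detection filter, and 0 of these 22 were called in each comparison. At an unadjusted p under 0.05 limma gave 1 for SIRT1Tg, 0 for CR and 1 for EX. Their median differences were -0.10, 0.21 and 0.07 log2 units for SIRT1Tg, CR and EX. The mean level of the 22 ranged from 4.42 to 6.34 on SIRT1Tg arrays, 4.38 to 8.27 on CR arrays, 4.44 to 7.89 on EX arrays and 4.37 to 7.44 on WT arrays.

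The number of called features was also computed with the arrays of high member level left out or modelled. With the mean member level as a further term, limma called 141 features for SIRT1Tg, 743 for CR and 1 for EX, and these included all 7, all 426 and the 1 called without the term. Without CR-2241, EX-1971 and WT-1960, which left 21 arrays, the counts were 95, 804 and 1, of which 7, 419 and 1 were among the original calls. Without all 9 arrays whose mean member level was over 5, which left 4 SIRT1Tg, 5 CR, 3 EX and 3 WT arrays, they were 323, 1207 and 52, of which 7, 406 and 1 were among the original calls. The counts for EX were thus the same in the first 2 settings. The term and the array sets come from the levels by which the members were chosen, the sets were picked after those levels were seen, and leaving arrays out changes the size and series balance of each group. The counts therefore describe how the whole-table result depends on the arrays and support nothing about the members.

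**Figure D3:**
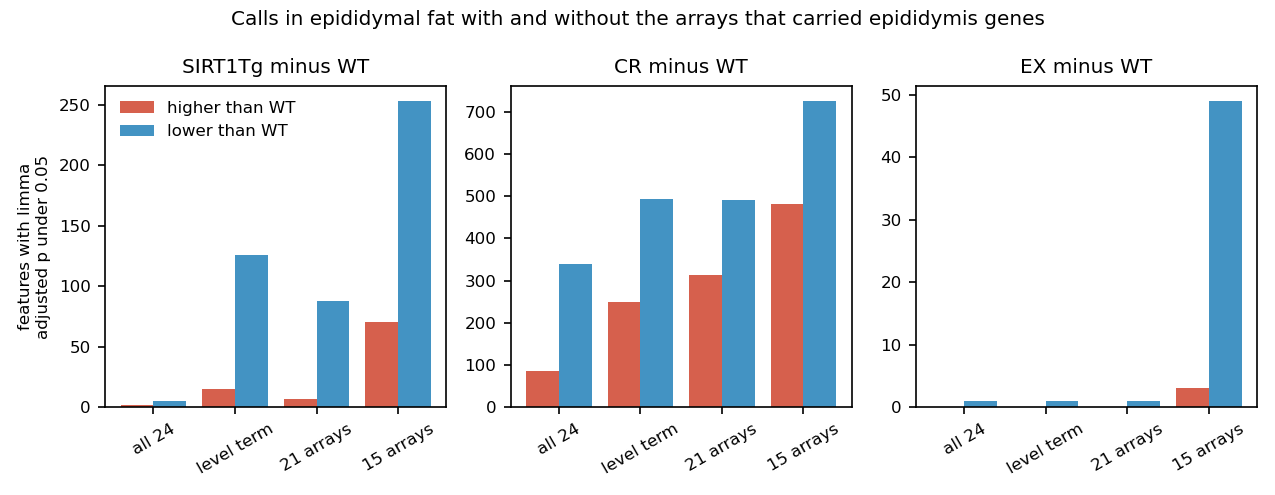
Number of epididymal fat features with a limma adjusted p under 0.05, higher (red) or lower (blue) than WT, for SIRT1Tg, CR and EX. In each panel the bars stand for all 24 arrays, all 24 with the mean level of the 10 epididymis genes as a term, the 21 arrays without CR-2241, EX-1971 and WT-1960, and the 15 arrays with a mean level under 5. The totals for SIRT1Tg are 7, 141, 95 and 323, and each panel has its own count axis starting at 0.

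Several other genes of the epididymis, from a list made with earlier results known, were high on the same arrays as members, and others were not. Their ranges over the 24 arrays ran from 0.54 log2 units (Defb41) to 9.54 (Spink8). Defb38, Defb37 and Defb28 are beta-defensins, and Defb28 is next to Defb29. Defb38 was 13.51 on CR-2241, 10.04 on EX-1966, 13.66 on EX-1971 and 13.15 on WT-1960, and 5.04 or below elsewhere. Defb37 was 13.11, 9.44, 13.14 and 12.70 on these arrays and 4.51 or below elsewhere. Defb28 was 13.08, 9.75, 13.24 and 12.83 there, and also 6.63 on SIRT1Tg-1955 and 6.88 on WT-2226. These genes were high on the 4 arrays where Defb22 was high.

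Serpina1f, a serpin, the beta-defensin Defb42 and Spink8, a Kazal-type protease inhibitor, were also high on the arrays where Defb30 was. Serpina1f was highest on SIRT1Tg-1955 at 12.47, and it was 8.67 on SIRT1Tg-1953, 11.34 on CR-2241, 6.82 on EX-1966, 11.31 on EX-1971, 10.43 on WT-1960 and 10.65 on WT-2226. Defb42 was likewise highest on SIRT1Tg-1955 at 12.25, with 11.76 on CR-2241, 11.87 on EX-1971, 11.01 on WT-1960 and 10.92 on WT-2226. Spink8 lay between 12.76 and 13.70 on these 5 arrays. High values of these genes were not confined to the Defb30 arrays. On EX-1966 and SIRT1Tg-1953, where Defb30 was 4.48 and 5.16, Spink8 was 11.72 and 10.92 and Defb42 was 8.48 and 8.52. Defb42 was also 6.53 on EX-1972 and 6.05 on WT-1961, where Spink8 was 6.97 and 7.52.

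Spag11b and Defb18, defensin-like genes of the duct, had another pattern and were highest on EX-1966, at 8.90 and 8.94. Spag11b was 6.13 on SIRT1Tg-1953, 7.91 on SIRT1Tg-1955, 8.35 on EX-1972 and 8.41 on WT-1961, but 5.79 on CR-2241, 4.60 on EX-1971 and 4.52 on WT-1960. Defb18 was 8.35 on EX-1972 and 7.01 on WT-1961, but 5.86 on CR-2241, 4.39 on EX-1971 and 4.34 on WT-1960. EX-1971 and WT-1960, where the mean member level was over 10, were thus close to background for both genes. A separate list of 10 genes stands for the initial segment and caput, the first parts of the duct, and shares genes with the list above. Of these 7 had a probe and 3 passed the filter (Lcn5, Lcn8 and Cst11), with 0 called in each comparison. Cst11 lay between 4.61 and 5.46 and Lcn8 between 4.30 and 5.27 over the 24 arrays, and Lcn5 reached 6.87 on CR-2241 and was 4.85 or below elsewhere.

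Genes next to a member on the chromosome gave 8 probed neighbours that passed the filter and were not members, of which Spint5, Wfdc6a, Defb28 and Defb42 are also in the list above. Defb26, Wfdc13, Nefm, Adamdec1, Wfdc8, Defb23 and Defb21 had a probe but did not pass. The filter asks for detection on 6 or more arrays, so a dim gene can pass through the arrays where it is high. Of these, Spint5 (next to Spint4) read 11.98 on CR-2241, 9.86 on EX-1971 and 7.73 on WT-1960 and at most 4.94 elsewhere. Wfdc6a (next to Eppin) read 11.91, 12.24 and 11.23 on these arrays, and Ptgds, the lipocalin-type prostaglandin D synthase next to Lcn12, read 10.46, 11.96 and 10.76. Defb43, next to Defb30, read 11.85, 12.34 and 11.36, and up to 10.42 on the other arrays. These neighbours were high on the same 3 arrays, but they are the ones that passed the filter, so they do not stand for neighbours in general. C8g, a complement gene on the other side of Lcn12, was also highest on these 3 arrays, at 7.53, 7.48 and 7.34, but within a narrow range, with 5.79 to 7.24 on the others. Aldh1a2, next to Aqp9, lay between 4.68 and 5.77 and was highest on WT-2228.

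Among the 100 eWAT features of widest range, the narrowest of which spans 5.74 log2 units, 9 were members and 9 were other epididymis genes of the list. Of the 100, 50 were highest on EX-1971, 20 on SIRT1Tg-1955, 13 on CR-2241, 8 on EX-1972, 5 on EX-1976 and 4 on EX-1966. By Spearman correlation with the mean member level over the 24 arrays, the most alike of the non-members were Tctex1d2 (rho 0.88), Ttc39a (0.88), Sgpp1 (0.88), Cfap52 (0.87) and Tpd52 (0.87). Without CR-2241, EX-1971 and WT-1960 these were 0.85, 0.84, 0.82, 0.84 and 0.81 over 21 arrays. Sgpp1, a sphingosine phosphate phosphatase, ran from 8.57 to 12.42 and was highest on EX-1971. The 20 most alike features had a rho of 0.83 to 0.88, and the others were Hdgfl2, Rnase1, Ak8, 4930432K21Rik, Aldh3a1, Atpif1, Abr, Camsap3, Tmem102, Adck5, Cldn23, C1qtnf4, Rnf186, Gm1673 and Plekha1. The correlations are descriptions over arrays that fall into separate clusters and carry no p-value.

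Lists of other cell types that a dissected fat pad could hold moved with the members on some arrays, and their part in the results was not tested. Testis germ cell genes, which also stand for sperm RNA, had 14 of 17 probed genes pass the filter, with 0 called in each comparison. Their mean level ranged from 4.33 to 6.22 on SIRT1Tg arrays, 4.37 to 7.31 on CR arrays, 4.37 to 8.31 on EX arrays and 4.38 to 7.03 on WT arrays. Prm1, the protamine that packs sperm DNA, was 11.02 on CR-2241, 11.17 on EX-1971 and 9.66 on WT-1960. The arrays where it was higher still included EX-1974 (11.93), EX-1976 (13.03) and WT-1959 (12.34), where the mean member level was 4.55, 4.64 and 4.61. They were not the only ones, since the highest SIRT1Tg array had Prm1 at 11.20. On EX-1966, with a mean member level of 7.73, the germ cell list averaged 7.91. On WT-2226, with Defb30 at 7.15, Prm1 was 4.25 and the mean of the germ cell list was 4.38. So germ cell RNA was read on arrays of high and of low mean member level. Low did not mean none, as EX-1976 and WT-1959 each had 4 members detected and EX-1974 had 2. Odf1, an outer dense fibre protein of the sperm tail, was highest on CR-2241 (10.94), EX-1971 (10.71) and WT-1960 (10.18), then 9.54 on EX-1976. Pgk2, Smcp and Tssk6, other genes of spermatids, were also highest on CR-2241 (8.49, 10.58 and 8.88). These 4 genes are named for their correlation with the mean member level. Of the 14 germ cell genes that passed, 4 were highest on CR-2241, 5 on EX-1976, 4 on EX-1966 and 1, Ddx4, on SIRT1Tg-2223.

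Of 7 testis somatic genes with a probe only Cyp17a1, a steroid hydroxylase, passed the filter, and it was 7.21 on SIRT1Tg-1953, 11.04 on CR-2241, 8.28 on EX-1966, 11.58 on EX-1971 and 10.49 on WT-1960. Insl3, Hsd17b3, Star, Rhox5, Hsd3b6 and Amh did not pass it, but a gene detected on fewer than 6 arrays fails it too. Of the 7 genes, 4 were detected on EX-1966, 3 on SIRT1Tg-1953 and 3 on EX-1976, and at most 1 on any other array. Epithelial genes had 15 of 17 pass, with mean levels of 4.52 to 7.47 on SIRT1Tg arrays, 4.59 to 7.61 on CR arrays, 4.47 to 7.82 on EX arrays and 4.32 to 6.89 on WT arrays, and 0 called. Cdh1, the epithelial cadherin, reached 8.66 on EX-1971. Cdh16, a cadherin of kidney and related ducts, was highest on SIRT1Tg-1953 (9.62), EX-1972 (10.31) and WT-1961 (9.94), while EX-1971 had 8.81 and WT-1960 had 6.82.

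Smooth muscle genes, which also mark the muscular wall of the duct and of vessels, had 8 of 9 pass. Their mean was 11.50 on SIRT1Tg-1955 and 10.01 on WT-2226, the 2 arrays where Defb30 was high and Defb22 was not detected, and between 6.66 and 8.25 on the other 22. Group ranges were 7.11 to 11.50 for SIRT1Tg, 6.66 to 7.65 for CR, 7.01 to 8.25 for EX and 7.0 to 10.01 for WT. Actg2, enteric smooth muscle actin, was 13.42 on SIRT1Tg-1955, 12.13 on WT-2226 and 8.72 or below elsewhere. Acta2 fell in CR against WT by 1.45 ± 0.34 log2 units (SE, limma adjusted p = 0.017), and the other 7 were not called.

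Among seminal vesicle genes 3 of 8 passed, with means of 4.44 to 4.65, 4.31 to 5.61, 4.35 to 5.84 and 4.41 to 5.58 on SIRT1Tg, CR, EX and WT arrays, and 0 were called. Ceacam10 was 7.73 on CR-2241, 8.31 on EX-1971 and 7.36 on WT-1960, whereas Svs5 was highest on CR-2245 (7.17). Of prostate genes 2 of 5 passed (Spink1 and Msmb), with 0 called, and of clear cell proton pump genes 1 of 6 passed (Atp6v1b1, 4.29 to 5.38), with 0 called. Leukocyte genes had 7 of 8 pass, and 3 fell in CR against WT (Lyz2, Cd3g and Cd3e, limma adjusted p = 0.0477, 0.0115 and 0.036). Cd52, a lymphocyte surface antigen that epididymal epithelium also makes, was 13.69 on SIRT1Tg-1955, 13.76 on CR-2241, 13.84 on EX-1971 and 13.66 on WT-1960, then 11.96 on EX-1966 and 12.66 on WT-2226.

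Adipocyte and mesothelial genes ran the other way on some arrays. All 9 probed adipocyte genes passed, and their mean was 9.10 on EX-1971, 9.77 on SIRT1Tg-1955 and 9.83 on CR-2241, the 3 lowest of 24, with group ranges of 9.77 to 10.59, 9.83 to 10.68, 9.10 to 10.40 and 10.12 to 10.43 for SIRT1Tg, CR, EX and WT. Lep, the adipocyte hormone leptin, was 7.85 on EX-1971 and 10.81 or more on all other arrays. Retn rose in CR against WT by 0.80 ± 0.21 log2 units (SE, limma adjusted p = 0.036). All 8 mesothelial genes passed with 0 called, and their mean, 5.93 on EX-1971 and 6.31 on CR-2241, was 6.82 or more elsewhere except on WT-2232 (5.55). Upk3b, a marker of the mesothelium that covers the fat pad, was 6.70 on EX-1971 and 5.48 on WT-2232, and 7.90 or more elsewhere. Among the lists with 0 called in every comparison, an unadjusted p under 0.05 was reached by 1 germ cell gene for EX, 1 prostate gene for CR and 1 mesothelial gene for SIRT1Tg, and by 0 genes of the testis somatic, seminal vesicle, epithelial, clear cell and initial segment lists.

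**Figure D4:**
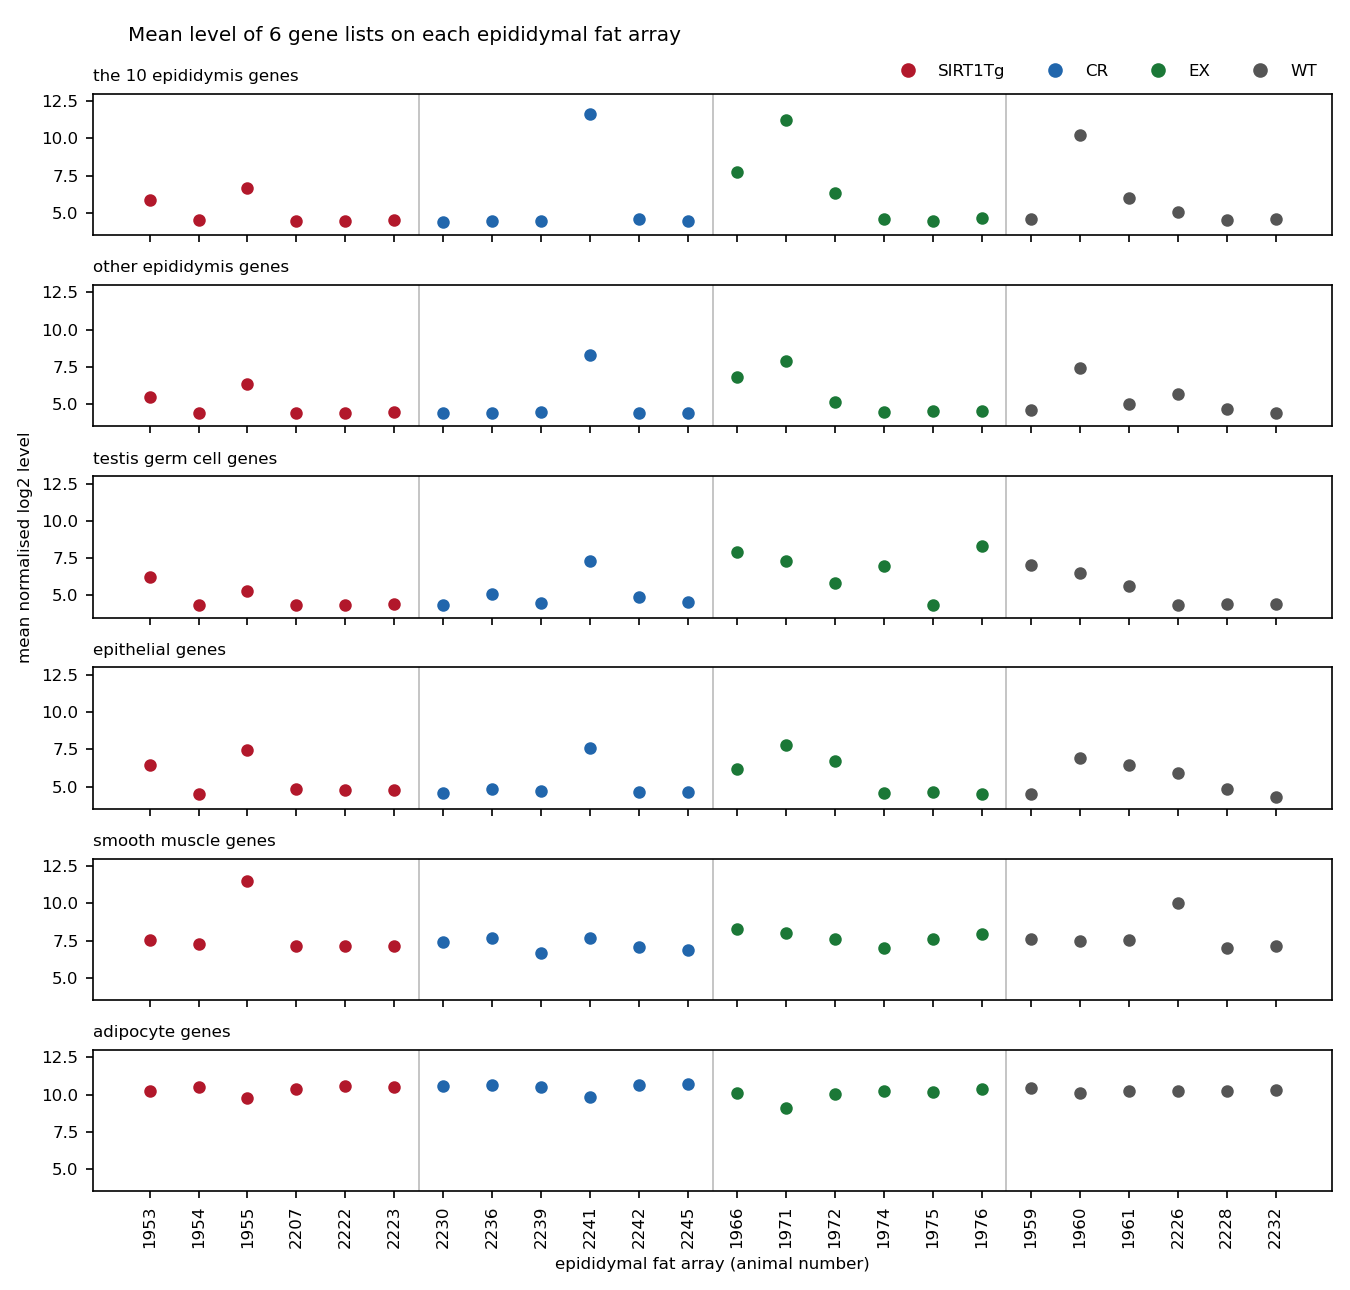
Mean normalised log2 level of 6 gene lists on each of the 24 epididymal fat arrays, coloured by condition, over the genes of each list that passed the detection filter. The 10 epididymis genes stand out on CR-2241, EX-1971 and WT-1960, the testis germ cell genes also on EX-1974, EX-1976 and WT-1959, and the smooth muscle genes on SIRT1Tg-1955 and WT-2226, while the adipocyte genes are lowest on EX-1971.

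The long number that ends each sample title was read here as a slide, which the labels do not state, and the slides were renumbered. Arrays with very different member levels shared such slides. CR-2241 was on slide 1 with EX-1972 (mean member level 6.32), EX-1971 on slide 9 with CR-2236 (4.43), and WT-1960 on slide 11 with CR-2230 (4.36). With slide as a fixed term, differences can be fitted for CR and EX but not for SIRT1Tg. The median member difference was then -1.46 for CR and -1.72 for EX, and limma called 0 features in both. Only slide 11 held CR beside WT, and only slide 2 (EX-1966 and WT-2232) held EX beside WT. The other WT arrays shared slides with WT arrays alone. These fits therefore rest on few arrays and do not show how much slide accounts for.

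In the other tissues the members were at background with the exception of Aqp9 and, at a low level, Lcn12. The tissues did not all come from the same mice. EX-1971, EX-1975 and WT-2228 had an array of epididymal fat only, and some EX and WT mice of the other tissues had no fat array. For EX-1971, with its high member levels in fat, no other tissue can therefore be compared. Leaving out Aqp9, 39.0% of the values of the 11 member probes were detected in eWAT, against 10.2% in liver and 4.55% in both muscle and BAT (264 values each), where the detection rule lets through 5% of background probes. With all 96 arrays normalised together these probes reached 13.9 in eWAT, 6.52 in liver, 5.90 in muscle and 4.70 in BAT. The liver and muscle maxima were both Defb22. Its liver maximum was on SIRT1Tg-1953, an array with 5841 probes detected, the fewest of its tissue, and an intensity of 99.8 over a background of 92.5. The muscle maximum was on CR-2241, again the array with the fewest probes detected in its tissue (8427). Normalisation within the tissue gave 6.37 and 5.47 for these values. The fat of that mouse had the highest mean member level, and in its muscle the other 8 members apart from Aqp9 read 4.14 to 4.73.

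Aqp9 was detected on all 24 liver arrays, from 11.4 to 12.5, and on 0 muscle arrays and 1 BAT array. In liver it averaged 11.9 ± 0.26 on SIRT1Tg arrays, 12.3 ± 0.18 on CR arrays, 12.1 ± 0.10 on EX arrays and 12.0 ± 0.17 on WT arrays (SD, n = 6 each). None of its differences passed, at -0.11 ± 0.11, 0.14 ± 0.12 and 0.18 ± 0.12 log2 units for SIRT1Tg, CR and EX minus WT (SE, limma adjusted p = 0.744, 0.981 and 0.68). Against this, limma called 0.0602%, 0.271% and 0.0201% of 9973 liver features. Lcn12 was detected on 16 of 24 liver arrays, at 4.27 to 5.23, and its differences were 0.21 ± 0.14, 0.04 ± 0.15 and 0.30 ± 0.15 (SE, limma adjusted p = 0.62, 0.99 and 0.606). No other member passed the detection filter in liver, and none did in muscle or BAT. The number of liver arrays on the side of the fitted sign was 4 of 6 SIRT1Tg, 5 of 6 CR and 5 of 6 EX arrays for Aqp9.

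**Figure D5:**
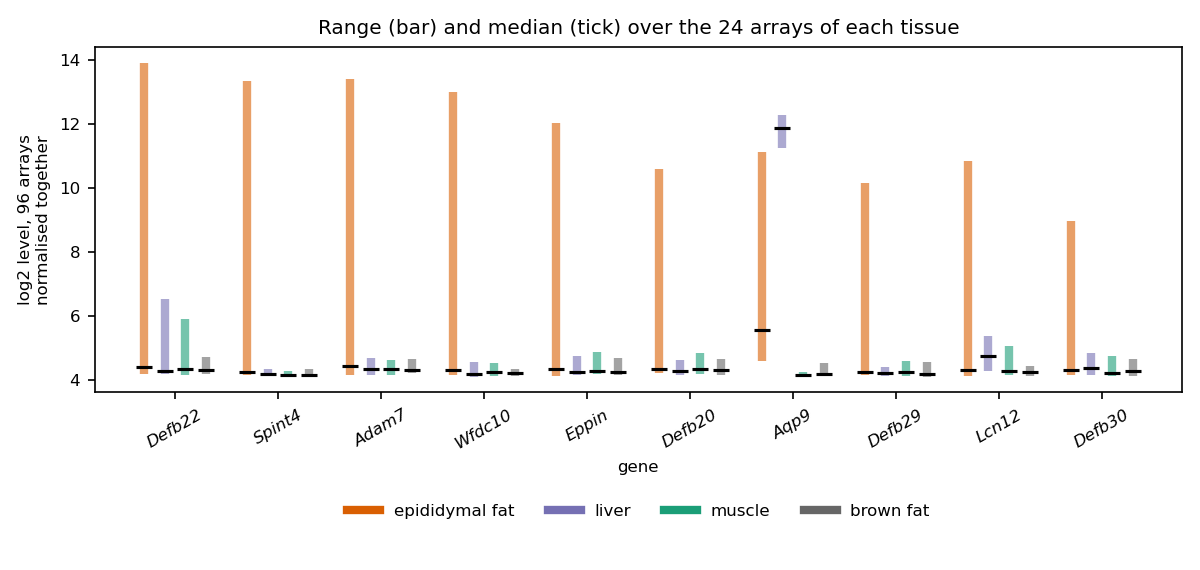
Lowest to highest (bar) and median (tick) log2 level of the 10 epididymis genes over the 24 arrays of each tissue, with all 96 arrays normalised together. Epididymal fat medians are near background for all genes but Aqp9 while the bars reach 9 to 14, and Aqp9 is the only gene with a high median in another tissue, the liver.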

How the data were processed

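Series-wide bead intensities were deposited without detection p-values, beside a matrix of log2 values, also deposited, for those arrays. GenomeStudio and Partek are named per the submitters' processing notes, and their versions and settings are not given in the sources used here. Of 25697 probes, 23962 were named through a gene ID, 16 by the platform symbol, and 1719 had no gene name.

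The deposited intensities were background-corrected by normexp with an offset of 16, the background of an array being the mode of its log2 density (bandwidth 0.03), then quantile normalised within each tissue. A probe was detected above the upper 0.05 tail of that background and kept if detected on 6 or more of 24 arrays, with 1 probe a gene, the one of highest mean. Models held condition and number series, with moderated tests in limma 3.58.1 (R 4.3.3, data.table version 1.17.8) and Benjamini-Hochberg adjustment over all features of a tissue. The scripts were tested on simulated data.

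The members and every gene list were chosen with earlier results of these data known. The text names all members, the 20 most alike genes, genes next to members, the 6 other epididymis genes of widest range, and up to 4 genes of each other list, called genes first and then those most correlated with the mean member level. Beyond this rule, Prm1, Cdh16, Actg2, Lep, Adipoq, Upk3b, Spag11b, Defb18, Lcn5, Lcn8, Cst11, Defb41 and Ddx4 were named after their values were seen. The alternatives are other background and scaling settings, the matrix values, filters, number series, slide, array weights, the mean member level as a term and omitted arrays. Columns of per-sample values left unused numbered 0.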

Additional observations from a re-analysis of the deposited data

Results flagged for a closer look

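Within groups of 6 arrays, 24 of 52 sets of values had 1 array whose gap to its nearest neighbour, as a share of the group's range, exceeded the 95% limit of Dixon's test. That limit is set so that about 1 in 20 sets of independent, normally distributed values exceed it. Levels near background need not follow this rate, also for genes not chosen by their values. The members were chosen by these epididymal fat levels and share the arrays, so the shares below are descriptions and no evidence.

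CR-2241 was far above the other CR arrays for all 10 genes. The share was 0.907 for Defb22, 0.985 for Spint4, 0.921 for Adam7, 0.968 for Wfdc10, 0.979 for Eppin, 0.945 for Defb20, 0.875 for Aqp9, 0.953 for Defb29, 0.963 for Lcn12, 0.961 for Defb30 and 0.973 for the mean member level. WT-1960 was far above the other WT arrays for 6 genes, with 0.966 for Defb22, 0.913 for Spint4, 0.837 for Wfdc10, 0.834 for Eppin, 0.641 for Defb20 and 0.731 for Lcn12, and with 0.743 for the mean member level.

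EX-1971 stood apart among the EX arrays for Spint4 (0.897) and Defb30 (0.886). SIRT1Tg-1953 stood apart among the SIRT1Tg arrays for Spint4 (0.89). SIRT1Tg-1955 stood apart for Wfdc10 (0.724) and Defb30 (0.806). In liver, Aqp9 on SIRT1Tg-1953 lay below the other SIRT1Tg arrays (0.796), and that array had 5841 probes detected, the fewest of the 24 in liver.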

How the results depend on the processing

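The median member difference from WT crossed 0 among the 14 alternatives of each comparison. In all of them it moved by less than the SD between arrays of a condition, 2.32 log2 units. CR-2241, EX-1971 and WT-1960 are part of that SD, so staying within it does not show that the median was stable. Leaving out 1 array at a time gave -1.33 to 0.02 for SIRT1Tg, -0.46 to 1.18 for CR and -1.03 to 1.25 for EX. With slide as a fixed term, a fit resting on the few slides that held WT beside CR or EX, it was -1.46 for CR and -1.72 for EX. Without CR-2241, EX-1971 and WT-1960, arrays chosen after seeing the data, it was 0.02 for SIRT1Tg, -0.00 for CR and 0.12 for EX.

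The number of all eWAT features called by limma for SIRT1Tg, 7 in the reported fit, was 4 with the deposited matrix values, 11 without background correction, 21 with median scaling, 3 without the number series term, 1 in series A alone, 26 in series B alone, 3 with slide as a random block and 297 with array weights. For CR, 426 in the reported fit, it was 0 when slide was fixed in the model and 1287 with array weights, with 213 higher and 218 lower without the series term and 38 higher and 406 lower under median scaling. For EX, 1 in the reported fit, it was 0 with matrix values, without background correction, with an offset of 50, with quantiles over all 96 arrays, in series A alone and with slide fixed. Few slides held WT beside CR or EX, which limits the fits with slide fixed. The mean member level as a term gave 141 for SIRT1Tg and 743 for CR. Without CR-2241, EX-1971 and WT-1960 the counts were 95 for SIRT1Tg and 804 for CR, and without the 9 arrays of mean member level over 5 they were 323, 1207 and 52 for SIRT1Tg, CR and EX. Leaving out 1 array gave 1 to 24 for SIRT1Tg, 177 to 495 for CR (177 without WT-2232, 207 without WT-2228) and 0 to 1 for EX. The cause was not tested.

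The other epididymis genes had 0 called in all 14 alternatives and 12 omissions of each comparison. The members in liver, muscle and BAT had 0 called in all 13 alternatives and 24 omissions. The smallest limma adjusted p was 0.366 over the alternatives and 0.364 over the omissions. No paired analysis was possible because the condition groups compared share no animal. Probes near the offset limit what can be said of small differences.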

Other observations

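Mean levels of the testis germ cell list did not follow those of the epididymis genes on every array. The list averaged 6.98 on EX-1974, 8.31 on EX-1976 and 7.03 on WT-1959, where the mean member level was 4.55, 4.64 and 4.61. It averaged 7.31 on CR-2241, 7.91 on EX-1966, 7.29 on EX-1971 and 6.49 on WT-1960. Defb19, a beta-defensin outside the members, was 8.12 on SIRT1Tg-1953, 9.06 on EX-1966 and 7.0 on EX-1976, and 5.52 or below on the other 21 arrays. Its value on EX-1976 stands beside a mean of 4.54 for the other epididymis genes on that array. Of 7 testis somatic genes, 3 were detected on SIRT1Tg-1953, 4 on EX-1966 and 3 on EX-1976, and at most 1 on any other array. How Defb19 relates to those genes was not tested.

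Skeletal muscle actin, Acta1, was read on all 24 eWAT arrays and fell in CR against WT by 2.64 ± 0.61 log2 units (SE, limma adjusted p = 0.0151). Of the 8 tissue check genes 5 passed the detection filter in eWAT, and the other 4 were not called in the CR comparison.

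Spink11, Defb48 and Spint5 are further genes of the epididymis list with values on few arrays. Spink11 was 7.71 on SIRT1Tg-1955, 10.30 on CR-2241, 8.27 on EX-1971, 7.37 on WT-1960 and 6.73 on WT-2226. Defb48 was 8.70 on SIRT1Tg-1955, 9.13 on CR-2241, 9.83 on EX-1971, 8.70 on WT-1960 and 7.21 on WT-2226. SIRT1Tg-1955 and WT-2226 carried these genes together with Defb30, while Spint5 was at 4.45 and 4.33 there. The genes of this section were named after their values were seen.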
